A study of Mus musculus with 13 samples.

Results

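Mast cell proteases and receptors were followed as 10 genes fixed by name: the granule proteases Cpa3, Mcpt1, Mcpt2, Mcpt4, Tpsb2 and Cma1, the receptor genes Kit, Fcer1a and Ms4a2, and Hdc, the enzyme that makes histamine. All 10 were measured, among 19938 genes, and each has 1 transcript cluster that names it alone. Measured values took no part in choosing the cluster, since no member has a second one. Cpa3 is cluster 10497451, Mcpt1 10415431, Mcpt2 10415438, Mcpt4 10420247, Tpsb2 10442786 and Cma1 10420225. Kit is cluster 10522530, Fcer1a 10360338, Ms4a2 10466216 and Hdc 10487238.

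The arrays hold RNA of 13 pieces of mouse rectum: 5 adenocarcinomas, numbered 1, 2, 3, 4 and 6, 4 pieces of adjacent inflamed mucosa, numbered 1 to 4, and 4 pieces of normal mucosa, numbered 1, 2, 4 and 6. Tumours and inflamed mucosa came from rectal prolapses of α6fl/fl Villin-Cre mice, in which Cre driven by the villin promoter deletes floxed α6 integrin in the intestinal epithelium. Normal mucosa came from mice labelled as controls, although their genotype field also reads α6fl/fl Villin-Cre. Tumour mice were 53, 60, 60, 64 and 80 weeks old, inflamed samples came from mice of 53, 60, 60 and 64 weeks, and normal mice were 53, 60, 64 and 70 weeks old. Tumour and inflamed tissue was cut from frozen sections and normal mucosa was scraped, so a comparison with normal mucosa also compares ways of collecting tissue. Expression is given as log2 RMA values, on which a difference of 1 is a doubling.

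Mast cells are resident immune cells that release stored granules when IgE bound to their high-affinity receptor meets its antigen. Fcer1a encodes the chain of that receptor that binds IgE, Ms4a2 its β chain, and Kit the receptor for stem cell factor, on which mast cells depend for survival. In mice, mucosal mast cells of the gut epithelium and lamina propria carry the chymases Mcpt1 and Mcpt2, whereas mast cells of connective tissue and muscle layers carry Mcpt4, Cma1 (also called Mcpt5), the tryptase Tpsb2 (also called Mcpt6) and carboxypeptidase A3 (Cpa3). Kit is also made by interstitial cells of Cajal, the pacemaker cells of gut muscle, and Hdc by basophils and immature myeloid cells.

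The promoters of Cpa3, Mcpt1, Mcpt4 and Fcer1a are shown because these genes rose and fell together from array to array, and that of Hdc because it did not follow them. The RefSeq table of build GRCm38.p6 held promoters for 8 of the 10 members, each from 250 bases before the annotated start to 50 bases after it. Capitals mark a GATA motif (AGATAA or TGATAA on either strand), an E-box (CACGTG or CATGTG on either strand) and a TATA box (TATAAA on the coding strand). The GATA motif is bound by factors such as Gata1 and Gata2, and such E-boxes by factors such as Mitf. The Hdc promoter held none of them, nor did those of Kit and Cma1. The sequences, each on the strand of its gene, are:
Cpa3, chr3:20242132-20242431, minus strand: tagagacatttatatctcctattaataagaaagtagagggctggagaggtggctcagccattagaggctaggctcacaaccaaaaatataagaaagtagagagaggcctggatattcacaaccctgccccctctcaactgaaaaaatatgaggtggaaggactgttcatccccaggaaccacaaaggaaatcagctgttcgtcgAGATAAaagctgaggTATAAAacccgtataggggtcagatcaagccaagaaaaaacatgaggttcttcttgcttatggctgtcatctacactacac
Mcpt1, chr14:56017714-56018013, plus strand: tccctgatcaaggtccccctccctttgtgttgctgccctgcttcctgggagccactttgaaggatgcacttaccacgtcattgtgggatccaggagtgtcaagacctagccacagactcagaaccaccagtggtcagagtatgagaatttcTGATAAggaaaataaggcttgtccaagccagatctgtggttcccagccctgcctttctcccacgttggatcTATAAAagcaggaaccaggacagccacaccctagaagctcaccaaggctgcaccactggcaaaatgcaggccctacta
Mcpt4, chr14:56062261-56062560, minus strand: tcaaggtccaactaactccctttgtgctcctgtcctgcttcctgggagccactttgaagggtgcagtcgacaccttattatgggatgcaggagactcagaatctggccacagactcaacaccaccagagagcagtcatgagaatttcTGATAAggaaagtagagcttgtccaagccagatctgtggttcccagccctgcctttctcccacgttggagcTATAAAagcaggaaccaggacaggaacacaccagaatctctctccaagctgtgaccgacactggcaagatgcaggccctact
Fcer1a, chr1:173227180-173227479, minus strand: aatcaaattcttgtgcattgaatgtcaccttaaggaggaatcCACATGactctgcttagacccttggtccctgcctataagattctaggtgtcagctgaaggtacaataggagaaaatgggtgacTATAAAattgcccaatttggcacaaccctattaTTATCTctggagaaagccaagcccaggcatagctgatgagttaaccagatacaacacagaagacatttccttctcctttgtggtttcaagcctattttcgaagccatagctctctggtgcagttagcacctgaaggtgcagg
Hdc, chr2:126618629-126618928, minus strand: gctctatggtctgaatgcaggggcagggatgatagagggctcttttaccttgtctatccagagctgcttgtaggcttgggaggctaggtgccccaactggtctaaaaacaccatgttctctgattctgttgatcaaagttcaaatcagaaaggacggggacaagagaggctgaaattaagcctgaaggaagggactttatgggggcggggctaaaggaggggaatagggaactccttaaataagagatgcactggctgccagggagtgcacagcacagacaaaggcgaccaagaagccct

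A GATA motif was found in 5 of the 8 promoters (Cpa3, Mcpt1, Mcpt4, Fcer1a and Ms4a2), the letters TATAAA in 4 (Cpa3, Mcpt1, Mcpt4 and Fcer1a) and an E-box in 1 (Fcer1a). Counted from the annotated start, TATAAA began at -31 in Cpa3, -28 in Mcpt1 and -32 in Mcpt4. In Fcer1a it began at -125, so that match is a match of letters only. Among 27025 promoters of the same length, 18.953% held the GATA motif, 8.881% the TATA box and 20.492% the E-box. The motifs did not overlap each other in the promoters shown. Mcpt1, Mcpt2, Mcpt4 and Cma1 are neighbours on chromosome 14. The Mcpt1 and Mcpt4 promoters were identical at 83.0% of 300 bases, and both hold the GATA motif TGATAA upstream of a TATA box. Cma1, whose promoter held none of these motifs, was identical to Mcpt1 at 55.0%. That is little more than the 49.67% of Cpa3, a carboxypeptidase gene on chromosome 3, with Mcpt1. Related chymases can cross-hybridise, so their array values may not be fully separate.

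Array medians over all transcript clusters lay between 6.41 and 6.59, and the number of arrays limits the precision. The mean level of 8 epithelial markers lay between 11.71 and 11.92 on all 13 arrays. Smooth muscle markers had mean levels of 10.15 to 11.13 in inflamed mucosa, 8.50 to 8.77 in adenocarcinoma and 6.50 to 7.96 in normal mucosa, without overlap between the groups. Xist on arrays of males and Y-linked genes on arrays of females, which should have no transcript, read up to 5.57. That level is a guide only, since each probe set has its own background. Cpa3 exceeded it on 4 arrays, all of inflamed mucosa, Mcpt1 and Cma1 on 9, Mcpt4 and Fcer1a on 2, both of inflamed mucosa, and Ms4a2 on none. Mcpt2, Tpsb2, Kit and Hdc exceeded it on all 13.

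**Figure D1:**
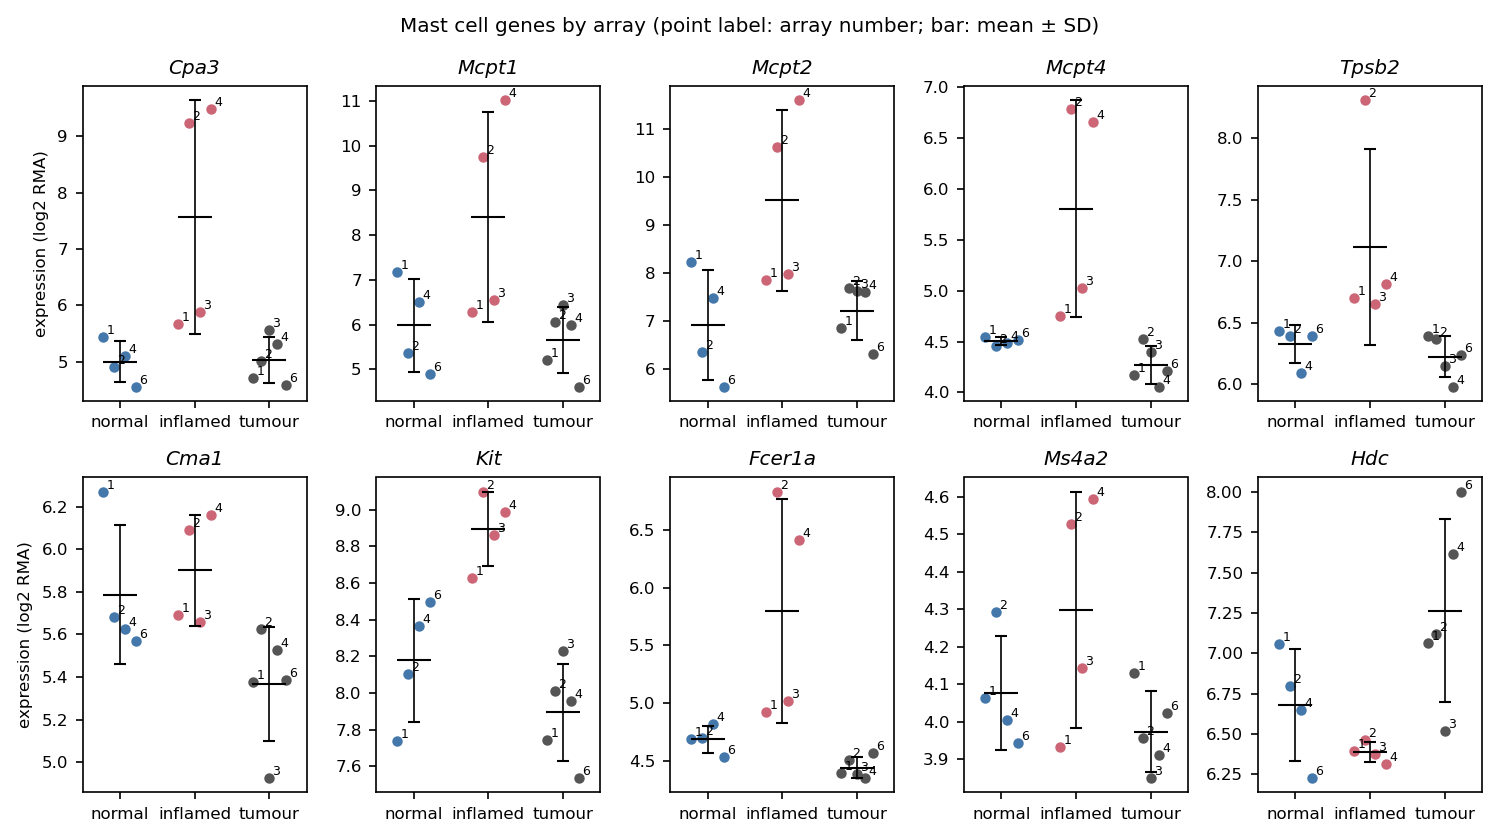
Expression of each of the 10 genes (y axis, log2 RMA, its own scale per panel) in normal mucosa (4 arrays), inflamed mucosa (4) and adenocarcinoma (5). Each point is an array with its number, and the bar gives the mean ± SD. Inflamed mucosa 2 and 4 stand far above the other arrays in Cpa3, Mcpt1, Mcpt2, Mcpt4 and Fcer1a. Kit is higher on all 4 inflamed arrays than on any other. Hdc is higher in every adenocarcinoma than on any inflamed array, but its adenocarcinoma and normal arrays overlap.

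The first comparison asks which mast cell genes differ between the inflamed mucosa of the prolapses and normal rectal mucosa. Cpa3, Mcpt2, Mcpt4, Kit and Fcer1a rose in inflamed mucosa, which makes 5 of 10 members higher and 0 lower, against 26.7% of all 19938 genes called, 13.7% higher and 13% lower (limma, adjusted p below 0.05). The median log2 difference was 0.95 over the members and -0.09 over all genes. Arrays did not overlap for 5 members, all higher (Cpa3, Mcpt4, Tpsb2, Kit and Fcer1a), against 12.0% of all genes higher and 15.5% lower without overlap. In RNA of whole tissue, more cells of a type and more RNA per cell cannot be told apart.

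Cpa3, the carboxypeptidase of mast cell granules, read 5.67, 9.23, 5.89 and 9.47 in inflamed mucosa 1 to 4, and 5.44, 4.91, 5.10 and 4.56 in normal mucosa 1, 2, 4 and 6. Inflamed mucosa 2 and 4 lay 3.79 and 4.03 above the highest normal array, whereas inflamed mucosa 1 and 3 lay 0.23 and 0.45 above it. The rise in Cpa3 was 2.56 ± 0.71 (log2 difference ± SE, n = 4 and 4, 5.91-fold, limma, adjusted p = 0.0183). It was no longer called without inflamed mucosa 2 (2.01, limma, adjusted p = 0.0605), without inflamed mucosa 4 (1.93, adjusted p = 0.0523) or in a fit of these groups alone (adjusted p = 0.0569).

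The mucosal chymase Mcpt1 read 6.28, 9.74, 6.55 and 11.02 in inflamed mucosa 1 to 4, and 7.18, 5.36, 6.50 and 4.91 in normal mucosa 1, 2, 4 and 6. Normal mucosa 1 was thus above inflamed mucosa 1 and 3, and the groups overlapped. Its mean levels of T and NK cell, macrophage and neutrophil markers (6.94, 8.14 and 7.06) were the highest of the normal arrays. Normal mucosa 2, 4 and 6 had 5.71 to 5.95, 6.96 to 7.42 and 6.22 to 6.41. The part of these cells in its values was not tested. The difference in Mcpt1 was 2.41 ± 0.90 and did not pass (n = 4 and 4, limma, adjusted p = 0.0606), but passed without inflamed mucosa 1 (3.11, adjusted p = 0.0217), inflamed mucosa 3 (3.02, adjusted p = 0.0289) or normal mucosa 1 (2.81, adjusted p = 0.0488).

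Mcpt2, the other mucosal chymase, read 7.86, 10.63, 7.97 and 11.60 in inflamed mucosa 1 to 4, and 8.23, 6.35, 7.47 and 5.63 in normal mucosa 1, 2, 4 and 6. The order of the arrays was nearly that of Mcpt1, again with normal mucosa 1 above inflamed mucosa 1 and 3. Mcpt2 rose by 2.60 ± 0.77 (n = 4 and 4, 6.05-fold, limma, adjusted p = 0.0245). This call ended without inflamed mucosa 2 (2.23, adjusted p = 0.0784) or 4 (1.90, adjusted p = 0.0706), without normal mucosa 2 (2.41, adjusted p = 0.0715) or 6 (2.17, adjusted p = 0.0594), and in a limma fit of these groups alone (adjusted p = 0.064).

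Mcpt4, a chymase of connective tissue mast cells, read 4.75, 6.79, 5.03 and 6.66 in inflamed mucosa 1 to 4, against 4.46 to 4.55 on the 4 normal arrays. Its normal arrays were very close together (SD 0.04), and each inflamed array lay above all of them. Mcpt4 rose by 1.30 ± 0.36 (n = 4 and 4, 2.47-fold, limma, adjusted p = 0.0188). In limma this no longer passed when inflamed mucosa 2 (0.98, adjusted p = 0.0581) or 4 (1.02, adjusted p = 0.0571) was left out, or in a fit of these groups alone (adjusted p = 0.0585).

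Tpsb2, a tryptase stored with heparin, read 6.70, 8.31, 6.65 and 6.82 in inflamed mucosa 1 to 4, and 6.43, 6.39, 6.09 and 6.39 in normal mucosa 1, 2, 4 and 6. Inflamed mucosa 2 stood apart, and inflamed mucosa 4, where Mcpt1 and Mcpt2 were highest, lay only 0.38 above the highest normal array. The difference in Tpsb2 was 0.79 ± 0.28 and did not pass (n = 4 and 4, limma, adjusted p = 0.0528). It passed without inflamed mucosa 1 (0.93, adjusted p = 0.0421), 2 (0.39, adjusted p = 0.0374) or 3 (0.95, adjusted p = 0.0354), with the replicate number as a block (0.88, adjusted p = 0.0355) and with cyclic loess (0.85, limma, adjusted p = 0.0498).

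Cma1, a connective tissue chymase, read 5.69, 6.09, 5.66 and 6.16 in inflamed mucosa 1 to 4, and 6.27, 5.68, 5.63 and 5.57 in normal mucosa 1, 2, 4 and 6. Its highest array was normal mucosa 1, and the groups overlapped. The difference in Cma1 was 0.11 ± 0.18 (n = 4 and 4, limma, adjusted p = 0.645) and turned to -0.076 with arrays centred on the median of the named genes.

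Among the receptors, Kit read 8.63, 9.10, 8.86 and 8.99 in inflamed mucosa 1 to 4, and 7.74, 8.11, 8.37 and 8.50 in normal mucosa 1, 2, 4 and 6. Kit was within 0.47 on the 4 inflamed arrays, and inflamed mucosa 1 and 3 were raised as well. Kit rose by 0.72 ± 0.18 (n = 4 and 4, 1.64-fold, limma, adjusted p = 0.00909). The call of Kit held without any 1 of the 13 arrays and ended when the mean of the smooth muscle markers entered the fit, under which 0 of the 19938 genes were called.

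Fcer1a read 4.92, 6.83, 5.01 and 6.41 in inflamed mucosa 1 to 4, against 4.69, 4.70, 4.82 and 4.53 in normal mucosa 1, 2, 4 and 6. Every inflamed array was above every normal one, by 0.10 and 0.19 for inflamed mucosa 1 and 3 and by 2.01 and 1.59 for inflamed mucosa 2 and 4. Fcer1a rose by 1.11 ± 0.33 (n = 4 and 4, 2.16-fold, limma, adjusted p = 0.0249). The call was lost without inflamed mucosa 2 (0.76, adjusted p = 0.0674) or 4 (0.90, adjusted p = 0.0766), without normal mucosa 2 (1.12, adjusted p = 0.0567), in a fit of these groups alone (adjusted p = 0.0734) and with 1 weight per group (limma, adjusted p = 0.0531).

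Ms4a2, the β chain, read 3.93, 4.53, 4.14 and 4.59 in inflamed mucosa 1 to 4, against 3.94 to 4.29 on the normal arrays. All of these values are below the level that absent transcripts reached. The difference in Ms4a2 was 0.22 ± 0.14 and did not pass (n = 4 and 4, limma, adjusted p = 0.224), although inflamed mucosa 2 and 4 were again highest.

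Hdc read 6.39, 6.46, 6.38 and 6.31 in inflamed mucosa 1 to 4, and 7.05, 6.80, 6.65 and 6.23 in normal mucosa 1, 2, 4 and 6. Inflamed mucosa 2 and 4, the arrays with the highest proteases, showed no high Hdc. The difference in Hdc was -0.29 ± 0.25 (n = 4 and 4, limma, adjusted p = 0.38).

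**Figure D2:**
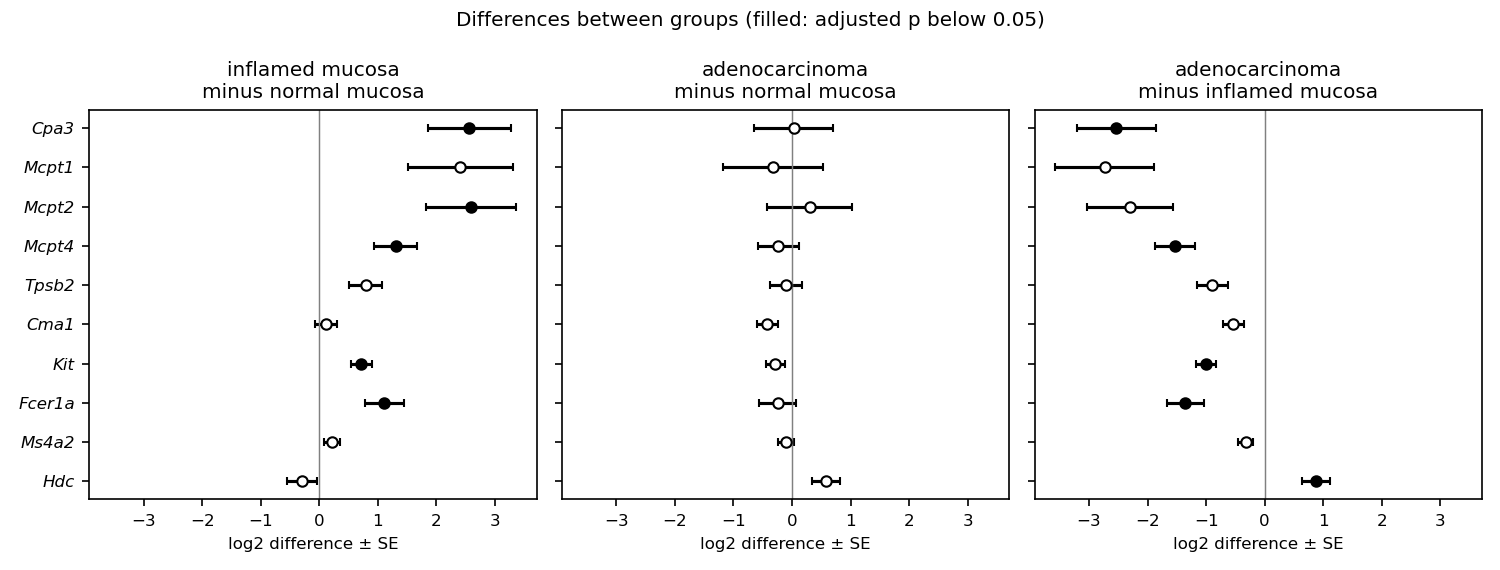
Log2 difference ± SE (x axis) of each gene in the 3 comparisons, from 1 limma fit of 13 arrays; filled points have an adjusted p below 0.05. Differences of inflamed from normal mucosa reach 2.60 (Mcpt2), those of adenocarcinoma from normal mucosa lie between -0.42 (Cma1) and 0.58 (Hdc), and adenocarcinoma lies below inflamed mucosa for all genes except Hdc.

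Inflamed mucosa was not uniform in these genes. The SD over its 4 arrays was 2.35 for Mcpt1, 2.07 for Cpa3 and 1.89 for Mcpt2, which were the 3rd, 6th and 7th largest of all 19938 genes, where the median SD was 0.14. It was 1.07 for Mcpt4 and 0.97 for Fcer1a (ranks 40 and 55), but 0.20 for Kit and 0.06 for Hdc (ranks 5403 and 17824). On the linear scale the highest inflamed array exceeded the lowest 26.6-fold in Mcpt1, 13.9-fold in Cpa3 and 1.38-fold in Kit.

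Inflamed mucosa 2 and 4 were both above inflamed mucosa 1 and 3 for 9 of 10 members, Hdc being the exception, and for 12.5288% of all genes. The gap between the lower of arrays 2 and 4 and the higher of arrays 1 and 3 was 3.34 in Cpa3, 3.19 in Mcpt1 and 2.66 in Mcpt2, which ranked 1, 2 and 3 among all 19938 genes. Mcpt4 followed at rank 7 (1.63) and Fcer1a at rank 11 (1.40). Kit (0.13) ranked 926 and Tpsb2 (0.12) ranked 1000. This measure was chosen after the values were seen, has no test and describes these 4 arrays. By the labels, inflamed mucosa 2 and 4 came from males of 60 and 64 weeks, inflamed mucosa 3 from a male of 60 weeks and inflamed mucosa 1 from a female of 53 weeks.

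**Figure D3:**
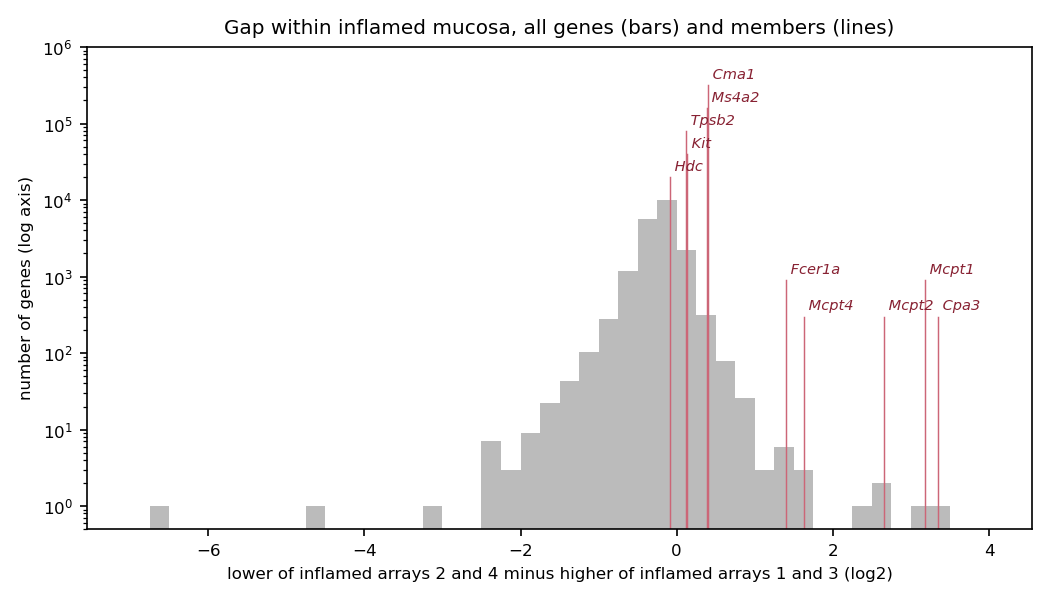
Number of genes (y axis, log axis) by the gap within inflamed mucosa (x axis, log2), which is the lower of arrays 2 and 4 minus the higher of arrays 1 and 3; lines mark the 10 members, and their height has no meaning. Cpa3, Mcpt1 and Mcpt2 lie at 3.34, 3.19 and 2.66, beyond every other gene, while Kit, Tpsb2 and Hdc lie at 0.13, 0.12 and -0.08.

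Inflamed mucosa 2 and 4 differed from each other. Inflamed mucosa 4 had the highest Mcpt1 and Mcpt2 (11.02 and 11.60, against 9.74 and 10.63 on inflamed mucosa 2). Inflamed mucosa 2 had the higher Tpsb2 (8.31 against 6.82) and Mcpt4 (6.79 against 6.66), whereas Cpa3 (9.47 against 9.23) and Cma1 (6.16 against 6.09) were higher on inflamed mucosa 4. Further granule genes and receptors went both ways. Gzmb (6.90 against 5.83), Enpp3 (7.51 against 7.08) and Hrh4 (4.61 against 4.32) were higher on inflamed mucosa 4 than on inflamed mucosa 2. So were Rab27b, Hrh2, Srgn, Vamp8, Tpsg1, Ctsg and Cd33, by smaller margins. Ndst2, Cd63, Cd200r3, Siglecf and Hrh1 were slightly higher on inflamed mucosa 2. The 4 genes given next were also higher on inflamed mucosa 2. Tpsab1, the second mast cell tryptase gene, read 5.40, 7.52, 5.46 and 5.79 in inflamed mucosa 1 to 4. Mrgprb2, a receptor for basic peptides on connective tissue mast cells, read 3.68, 4.88, 3.69 and 4.03, and its relative Mrgprb1 4.10, 4.96, 4.03 and 4.01. On every array both lay below the level that absent transcripts reached. Slc18a2, which loads histamine into granules, read 5.77, 6.71, 5.77 and 6.18. These 4 genes, and the further granule genes and receptors before them, were named after their values were seen. None of the 4 passed in inflamed against normal mucosa (limma, adjusted p = 0.348, 0.148, 0.382 and 0.235). A difference between single arrays has no test.

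Deviations from the group means over 13 arrays show which members moved together within groups. Among Cpa3, Mcpt1, Mcpt2, Mcpt4 and Fcer1a the 10 correlations lay between 0.764 and 0.989, the highest being that of Mcpt1 with Mcpt2. Ms4a2 correlated with these 5 at 0.589 to 0.807, Cma1 at 0.478 to 0.644, Tpsb2 at 0.323 to 0.718, Kit at 0.193 to 0.412 and Hdc at -0.089 to 0.093. These are descriptions over 13 arrays that rest largely on inflamed mucosa 2 and 4. The 5 genes were set apart because they moved together, so their high correlations are no test of that grouping.

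**Figure D4:**
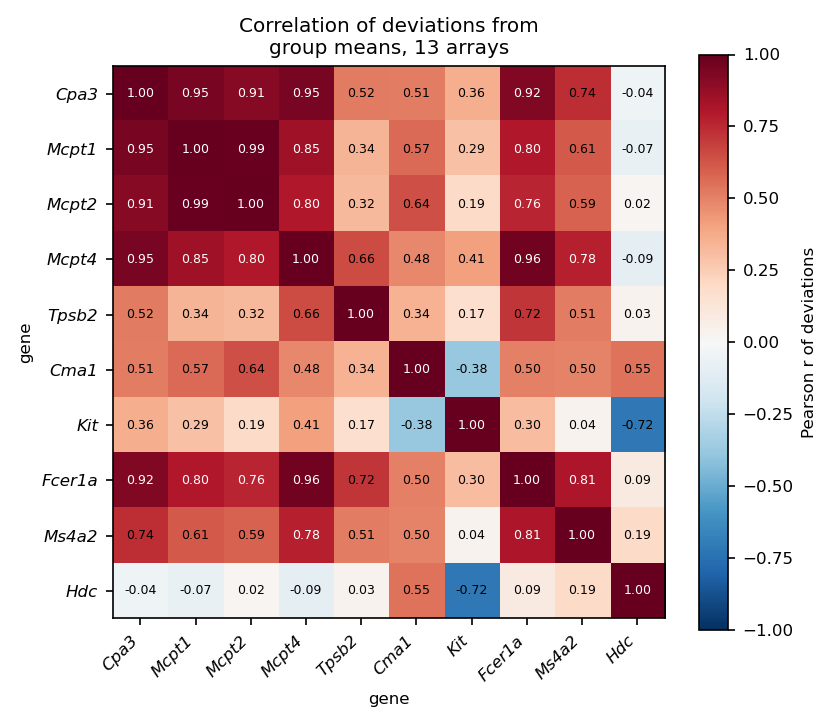
Pearson correlation (colour and number) of the deviations from group means between each pair of the 10 genes (both axes), over 13 arrays. Cpa3, Mcpt1, Mcpt2, Mcpt4 and Fcer1a form a block of 0.764 to 0.989, while Kit and Hdc stand outside it and correlate with each other at -0.717.

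Of 695 genes with a within-group SD of at least 0.5, those outside the list with deviations most like Cpa3 were Kcnip4 (r = 0.951), Pln (0.921), Nmu (0.920), Gpm6a (0.890) and Napb (0.886), over 13 arrays. For Mcpt1 they were Gpm6a (0.915), Kcnip4 (0.843), Pln (0.834), Nmu (0.831) and Il33 (0.817). Kcnip4 is a partner of potassium channels, Pln (phospholamban) restrains the calcium pump of muscle, Nmu is the neuropeptide neuromedin U, and Il33 is an alarm cytokine to which mast cells respond. Nmu read 5.96, 8.34, 5.96 and 9.23 in inflamed mucosa 1 to 4, against 5.41 to 5.70 in normal mucosa.

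The second comparison asks whether the tumours differ from normal mucosa. None of the 10 members passed in adenocarcinoma against normal mucosa (limma, 2 at an unadjusted p below 0.05, Cma1 and Hdc), where 35.8% of all genes were called, 16.4% higher and 19.4% lower. No member was free of overlap between the groups, against 13% of all genes higher and 13.9% lower without overlap. The median log2 difference was -0.17 over the members and -0.10 over all genes.

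Cpa3 read 4.71, 5.01, 5.56, 5.31 and 4.59 in adenocarcinomas 1, 2, 3, 4 and 6, overlapping the normal arrays. Its difference from normal mucosa was 0.03 ± 0.68 (n = 5 and 4, limma, adjusted p = 0.973), a value whose sign turned with sex as a covariate (-0.058), with arrays centred on the median of the named genes (-0.10) and without single arrays. Mcpt1 read 5.22, 6.07, 6.44, 6.0 and 4.62, and Mcpt2 read 6.87, 7.69, 7.63, 7.60 and 6.32. In both chymases the tumours of the females, 1 and 6, were lowest, but among normal arrays the females had the highest (normal mucosa 1) and the lowest value (normal mucosa 6). The differences from normal mucosa were -0.32 ± 0.85 in Mcpt1 and 0.30 ± 0.73 in Mcpt2 (n = 5 and 4, limma, adjusted p = 0.776 and 0.756), and these turned sign without normal mucosa 1 (0.076) and 6 (-0.13).

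Cma1 read 5.37, 5.62, 4.93, 5.53 and 5.39 in adenocarcinomas 1, 2, 3, 4 and 6, and differed from normal mucosa by -0.42 ± 0.17 (n = 5 and 4, limma, adjusted p = 0.0721). Kit read 7.74, 8.01, 8.23, 7.96 and 7.54, and differed by -0.28 ± 0.17 (adjusted p = 0.19 in limma). Both passed as lower with arrays centred on the median of the named genes (-0.55, limma adjusted p = 0.0139, and -0.42, adjusted p = 0.0423), a scaling that shifts the median of all genes by -0.136. The remaining differences were -0.23 in Mcpt4, -0.10 in Tpsb2, -0.25 in Fcer1a and -0.10 in Ms4a2, the last of which turned to 0.048 with cyclic loess.

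Hdc read 7.06, 7.12, 6.52, 7.62 and 8.0 in adenocarcinomas 1, 2, 3, 4 and 6. Adenocarcinomas 1, 2, 4 and 6 lay above the highest normal array (7.05), the first of them by less than 0.01, while adenocarcinoma 3 lay within the normal range. The difference from normal mucosa was 0.58 ± 0.24 (n = 5 and 4, limma, adjusted p = 0.0719), and leaving out adenocarcinoma 3 (0.77, adjusted p = 0.0133) or normal mucosa 1 (0.71, adjusted p = 0.0486) made it pass.

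The third comparison sets the tumours against the inflamed mucosa beside them. Cpa3, Mcpt4, Kit and Fcer1a were lower in adenocarcinoma and Hdc was higher, which makes 4 of 10 members lower and 1 higher, against 7.12% of all genes called, 4.21% lower and 2.91% higher (limma, adjusted p below 0.05). Without overlap between the groups 7 members were lower (all but Mcpt1, Ms4a2 and Hdc) and Hdc was higher, against 6.51% and 5.27% of all genes. The median log2 difference was -1.18 over the members and -0.01 over all genes. This comparison and that of inflamed with normal mucosa share the 4 inflamed arrays, so their opposite signs are not independent.

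Kit had the smallest adjusted p of the members and fell by 1.00 ± 0.17 (n = 5 and 4, 2.00-fold lower, limma, adjusted p = 0.00261), and its call held without any 1 of the 13 arrays. Fcer1a, at 4.39, 4.51, 4.38, 4.35 and 4.57 in adenocarcinomas 1, 2, 3, 4 and 6, fell by 1.35 ± 0.31 (2.56-fold lower, limma, adjusted p = 0.0184), and Mcpt4, at 4.17, 4.52, 4.40, 4.06 and 4.21, by 1.53 ± 0.35 (2.90-fold lower, adjusted p = 0.0157). Without inflamed mucosa 4 the calls of Fcer1a (-1.15, limma, adjusted p = 0.0677) and Mcpt4 (-1.25, adjusted p = 0.0552) were lost, and that of Mcpt4 also without inflamed mucosa 2 (-1.21, adjusted p = 0.0528).

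Cpa3 fell by 2.53 ± 0.68 (n = 5 and 4, 5.78-fold lower, limma, adjusted p = 0.0378). The fit behind these calls had no block for the number. With tumour and inflamed arrays of 1 number taken as pairs by a replicate block, the call of Cpa3 was lost (-2.44, limma, adjusted p = 0.0645, and -2.42, adjusted p = 0.0651 in the 4 pairs alone). It was also lost without 8 single arrays, at adjusted p between 0.0512 and 0.131. Mcpt1 (-2.73 ± 0.85), Mcpt2 (-2.30 ± 0.73), Tpsb2 (-0.89 ± 0.27), Cma1 (-0.53 ± 0.17) and Ms4a2 (-0.32 ± 0.13) did not pass (limma, adjusted p = 0.0723, 0.0788, 0.0623, 0.0852 and 0.173). Cma1 passed in the 4 pairs with the replicate block (-0.54, limma, adjusted p = 0.0136).

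Within pairs, adenocarcinoma was below the inflamed mucosa of its number in 4 of 4 pairs for all proteases, Kit and Fcer1a. The pair differences in Cpa3 were -0.97, -4.22, -0.33 and -4.16 in numbers 1 to 4, and in Mcpt1 -1.07, -3.67, -0.12 and -5.02. They were large where the inflamed mucosa was high, since tumours 2 and 4 did not share its level. In Kit they were -0.89, -1.09, -0.63 and -1.03, of like size in the 4 pairs.

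Hdc rose by 0.88 ± 0.24 against inflamed mucosa (n = 5 and 4, 1.84-fold, limma, adjusted p = 0.0423), with pair differences of 0.67, 0.66, 0.14 and 1.30. The call of Hdc was lost with the replicate block (0.83, limma, adjusted p = 0.0976) but not in the 4 pairs alone, with sex or age as a covariate (adjusted p = 0.0593 and 0.0736), and without 10 single arrays (adjusted p between 0.0546 and 0.106). Relative to inflamed mucosa, Hdc thus ran against the other members: higher in tumours, where Cpa3, Mcpt4 and Fcer1a were lower. Relative to normal mucosa, none of these genes passed in tumours. Hdc was level across the inflamed arrays.

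Markers of other cells moved with these groups. Of 10 neutrophil markers, 8 were higher in adenocarcinoma than in inflamed mucosa, against 2.91% of all genes. The mean level of the 10 was 7.86, 8.16, 8.07, 9.30 and 9.20 in adenocarcinomas 1, 2, 3, 4 and 6, against 6.44 to 6.78 in inflamed and 6.22 to 7.06 in normal mucosa. Adenocarcinomas 4 and 6 were highest in both Hdc and the neutrophil markers. The part of these cells in the Hdc result was not tested. The basophil proteases Mcpt8 and Prss34 did not pass in any comparison, and lay between 4.22 and 5.34 on all 13 arrays. Cd200r3, on basophils and mast cells, was lower in adenocarcinoma than in normal mucosa (-0.51 ± 0.13, limma, adjusted p = 0.00829), and Il3ra did not pass. Cd200r3 lay between 3.95 and 4.90 on all 13 arrays, below the level that absent transcripts reached.

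Among markers of the interstitial cells of Cajal, Etv1 followed Kit in the comparisons with inflamed mucosa, but not in adenocarcinoma against normal mucosa. Etv1 read 7.61, 8.81, 8.10 and 8.49 in inflamed mucosa 1 to 4, 6.32 to 6.63 in normal mucosa, and 6.86 to 7.54 in adenocarcinoma. It rose by 1.79 ± 0.22 in inflamed against normal mucosa and fell by 0.96 ± 0.20 in adenocarcinoma against inflamed mucosa (limma, adjusted p = 5.51e-05 and 0.012). In adenocarcinoma against normal mucosa Etv1 was higher (0.83 ± 0.20, limma, adjusted p = 0.00664), whereas Kit did not pass (-0.28, adjusted p = 0.19). Prkcq was lower in adenocarcinoma than in inflamed mucosa (-0.57, limma, adjusted p = 0.0482) and did not pass elsewhere. Ano1, which epithelium also makes, was lower than in normal mucosa both in inflamed mucosa (-0.43, limma, adjusted p = 0.0127) and in adenocarcinoma (-0.54, adjusted p = 0.00146). Edn3 was lower in adenocarcinoma than in normal mucosa (-0.83, limma, adjusted p = 0.0149). All 10 smooth muscle markers rose in inflamed mucosa, in which Kit was high. The part of these cells in the Kit result was not tested.

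**Figure D5:**
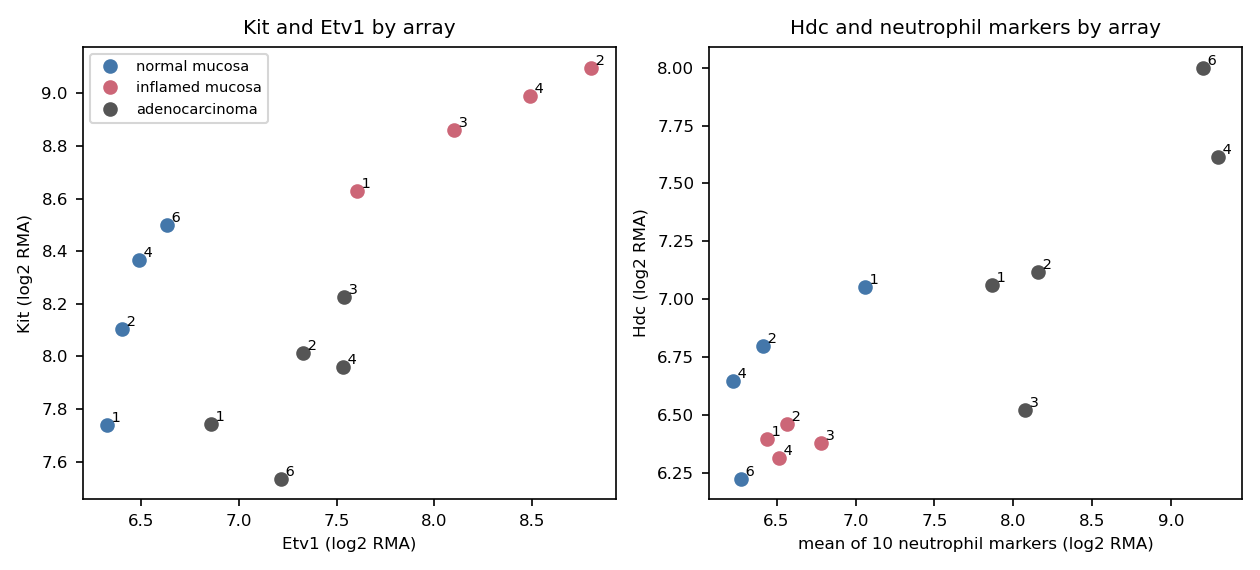
Left, Kit (y axis) against Etv1 (x axis); right, Hdc (y axis) against the mean of 10 neutrophil markers (x axis), all in log2 RMA, with 1 point per array and its number. The 4 inflamed arrays are highest in both Kit and Etv1, and adenocarcinomas 4 and 6 are highest in both Hdc and neutrophil markers. Of the 4 interstitial cell of Cajal markers, only Etv1 was called higher in inflamed than in normal mucosa, and Ano1 was called lower.

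Further genes of mast cell function were followed as lists. Of 11 genes of IgE receptor signalling, 7 were higher in inflamed than in normal mucosa and 0 lower, against 13.7% and 13% of all genes. The median log2 difference of the 11 was 0.69. The 7 include the phospholipases Plcg2 (0.91 ± 0.16) and Plcg1 (0.63 ± 0.13), the phosphatase Inpp5d (1.03 ± 0.22) and the adaptor Lat2 (0.61 ± 0.14), each with a limma adjusted p of at most 0.00575. Fcer1g, the γ chain of the IgE receptor, was named after its values were seen. It read 8.24, 8.77, 8.41 and 9.36 in inflamed mucosa 1 to 4, and 8.15, 7.10, 6.50 and 6.89 in normal mucosa 1, 2, 4 and 6 (1.53 ± 0.36, limma, adjusted p = 0.00776). Inflamed mucosa 2 and 4 were again the higher arrays, and all 4 lay above every normal array. Macrophages, which also carry Fcer1g, moved the same way: 7 of 8 macrophage markers rose, with mean levels of 9.0 to 9.41 in inflamed and 6.96 to 8.14 in normal mucosa, and their part in these rises was not tested. In adenocarcinoma against normal mucosa 5 of the 11 genes were higher (Plcg1, Plcg2, Inpp5d, Lat2 and Fcer1g), against 16.4% of all genes. None of the 10 members passed there. Plcg1 was also higher in adenocarcinoma than in inflamed mucosa (0.47 ± 0.13, limma, adjusted p = 0.0394).

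Of 6 transcription factors of the lineage, Mitf (0.91 ± 0.17), Lmo2 (1.04 ± 0.21), Spi1 (1.28 ± 0.33) and Gata2 (0.29 ± 0.10) rose in inflamed mucosa (limma, adjusted p = 0.00161, 0.00289, 0.0132 and 0.0484), and the remaining members of the list, Gata1 and Tal1, did not pass (-0.23 and -0.22). Of all genes 13.7% were higher in inflamed than in normal mucosa. The same 4 factors were higher in adenocarcinoma than in normal mucosa, a comparison in which 16.4% of all genes were higher and no protease of the 6 passed. Between adenocarcinoma and inflamed mucosa 0 of the 6 factors passed (limma, 1 at an unadjusted p below 0.05), against 7.12% of all genes.

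Of 22 growth and recruitment genes, 7 rose and 1 fell in inflamed mucosa, against 13.7% and 13% of all genes. The adhesion molecule Vcam1 rose by 2.99 ± 0.25, its integrin partner Itga4 by 1.76 ± 0.33, the growth factor Tgfb1, which induces Mcpt1 in mucosal mast cells, by 1.05 ± 0.16 and its receptor Tgfbr1 by 0.82 ± 0.18 (limma, adjusted p at most 0.0045). Kitl, the ligand of Kit, was named after its values were seen, and read 9.33, 9.66, 9.54 and 9.27 in inflamed mucosa 1 to 4, against 7.99 to 9.09 in normal mucosa (0.89 ± 0.22, limma, adjusted p = 0.00914). The mast cell growth factor Il9 was the gene that fell (-0.45 ± 0.15, limma, adjusted p = 0.0381), at 5.23 to 5.75 in inflamed mucosa, near the level of absent transcripts. The growth factor Il3 and the type 2 cytokines Il4 and Il13, also named after their values were seen, did not pass (limma, adjusted p = 0.919 for Il3, 0.219 for Il4 and 0.11 for Il13). Tgfb1 and Vcam1 were nearly as high on inflamed mucosa 1 and 3 (Tgfb1 8.65 and 8.60, Vcam1 9.10 and 9.10) as on 2 and 4 (8.74 and 8.77, 9.39 and 8.84), whereas Cpa3, Mcpt1 and Mcpt2 were not. Vcam1, Itga4, Tgfb1 and Tgfbr1 were also higher in adenocarcinoma than in normal mucosa (2.40, 1.09, 1.46 and 0.95, limma, adjusted p at most 0.016). Kitl (0.37, limma, adjusted p = 0.168) and Mcpt1 (-0.32, adjusted p = 0.776) did not pass there.

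Of 7 genes for lipid mediators, Cysltr1, a leukotriene receptor, rose in inflamed mucosa (1.51 ± 0.24), as did Alox5ap (1.06 ± 0.34) and the phospholipase Pla2g4a (0.49 ± 0.16), whereas the prostaglandin D synthase Hpgds fell by 0.83 ± 0.21 (limma, adjusted p = 0.000527, 0.0328, 0.0345 and 0.0112). Of 10 further granule genes, the proteoglycan Srgn rose by 2.04 ± 0.49 and the vesicle protein Vamp8 fell by 0.64 ± 0.12 (limma, adjusted p = 0.0082 and 0.00222). Of 9 further receptors, Cd33, a lectin of myeloid cells, rose by 1.63 ± 0.29 and the histamine receptor Hrh1 fell by 0.92 ± 0.13 (limma, adjusted p = 0.00123 and 0.000261). Of all genes 13.7% were higher and 13% lower in inflamed against normal mucosa, near the shares of the granule genes and receptors. In adenocarcinoma against inflamed mucosa 0 of the 7, 0 of the 10 and 0 of the 9 genes passed (limma, 2, 2 and 3 at an unadjusted p below 0.05), against 7.12% of all genes.

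Of the other cell types, 8 of 8 fibroblast, 7 of 7 endothelial and 7 of 7 B and plasma cell markers also rose in inflamed mucosa, where the 5 mast cell members rose. Of all genes 13.7% were higher and 13% lower there than in normal mucosa. Melanocytes, which carry Kit, had 3 of 5 markers lower there and 0 higher, T and NK cells 1 of 9 higher and 1 lower, and eosinophils 0 of 7 called (limma, 2 at an unadjusted p below 0.05). The part of these cells in the members' values was not tested.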

How the data were processed

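RNA of 13 pieces of mouse rectum was measured on Affymetrix Mouse Gene 1.0 ST arrays, 1 array each. The deposited values are log2 intensities that the authors summarised per transcript cluster with RMA, per the labels. Per the submitters' processing notes, AGCC 2.0, Expression Console 1.1 and Partek were used, without a stated role for each. The sources used here do not name the genome build of the array annotation.

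Of 35556 transcript clusters, 21789 were annotated to 1 gene, 1621 to several and 12146 were not listed. For each of the resulting 19938 genes the cluster with the highest mean over 13 arrays was kept, without a filter on dim genes. Groups came from the labels. The 3 groups were fitted together by the lmFit and eBayes functions of limma (version 3.58.1, R version 4.3.3), and p-values were adjusted by Benjamini-Hochberg over the 19938 genes, with a threshold of 0.05. The fit was tested on simulated data. The labels give an age and a sex for each sample but no animal identifier, so p-values measure the spread between these samples.

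The members and the gene lists were chosen with earlier results of these data known. All 10 members are described, and of each other list up to 4 genes with the smallest adjusted p in a comparison could be named, with all basophil and interstitial cell of Cajal markers and the 5 genes most like Cpa3 and Mcpt1. Names outside this rule are stated as such. Deviations from group means of tumour and inflamed arrays with the same number correlated at 0.319, 0.198, 0.199 and 0.387 over genes. These numbers were therefore taken as pairs in the pair differences and in the alternatives with a replicate block. The main fit, which gave the reported calls and counts, had no block. Correlations of normal mucosa with arrays of the same number lay between -0.126 and 0.0413, and these were not taken as pairs.

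Alternatives were the replicate block, sex, age or smooth muscle score as a covariate, fits of the compared groups alone, other scalings, filters and weights, and leaving out each array. Group weights and centring on the median of the named genes were added after seeing the data.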

Additional observations from a re-analysis of the deposited data

Results flagged for a closer look

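Of 30 groups of arrays tested (10 members in 3 groups), 3 had an array far from the others by Dixon's 95% criterion, where chance gives about 1 in 20. Tpsb2 in inflamed mucosa 2 was 8.31, against 6.82 on the next array. Tpsb2 in normal mucosa 4 was 6.09, against 6.39 on the next. Cma1 in normal mucosa 1 was 6.27, against 5.68 on the next.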

How the results depend on the processing

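The count of members called in inflamed against normal mucosa was 5. It was 1 in a fit of these groups alone, 3 without the dimmest genes (the lowest of 3 equal parts), which leaves Cpa3, Mcpt4, Cma1, Fcer1a and Ms4a2 untested, 0 with the mean of the smooth muscle markers in the model, and 1 to 7 with single arrays left out (1 without inflamed mucosa 4, 2 without inflamed mucosa 2, 3 without normal mucosa 2). With those markers Cpa3 became -1.06, Mcpt4 -1.18, Tpsb2 -0.76, Kit -0.56, Fcer1a -0.63, Ms4a2 -0.26 and Hdc 0.69, none of them called. Cma1 became -0.076 with arrays centred on the median of the named genes. That scaling gave 1875 genes higher and 9510 lower, against 2730 and 2592 as reported, and 2491 and 8612 against 3266 and 3867 in adenocarcinoma against normal mucosa.

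In adenocarcinoma against normal mucosa the count was 0. It was 2 with that centring (Cma1 and Kit), and 0 to 1 with single arrays left out. Cpa3 changed sign with sex (-0.058) or the smooth muscle mean (-1.54) in the model, with that centring (-0.10), and without adenocarcinoma 3 (-0.10), adenocarcinoma 4 (-0.04) or normal mucosa 6 (-0.11). Ms4a2 became 0.048 with cyclic loess, Mcpt1 0.076 without normal mucosa 1 and Mcpt2 -0.13 without normal mucosa 6. With single arrays left out, Cpa3 ranged from -0.11 to 0.18, Mcpt1 from -0.68 to 0.076 and Mcpt2 from -0.13 to 0.74.

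In adenocarcinoma against inflamed mucosa the count was 5. It was 3 with the replicate block, 3 with age as a covariate, 3 with all transcript clusters, 2 without the dimmest genes, 8 with array weights, 0 with the smooth muscle mean, and 1 to 8 with single arrays left out (1 without inflamed mucosa 4, 8 without inflamed mucosa 1). With the replicate block the count was 6 in inflamed against normal mucosa and 0 in adenocarcinoma against normal mucosa. Beyond fewer genes or arrays, the cause of these changes was not tested. Signal limits Ms4a2, which never exceeded the level of absent transcripts, and Mcpt4 and Fcer1a, which exceeded it only on inflamed mucosa 2 and 4. Cpa3 exceeded it on no normal or adenocarcinoma array.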

Other observations

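Outside mast cell genes, Ang4, Nmu and Retnlb also set inflamed mucosa 2 and 4 above 1 and 3. They were chosen after their values were seen and have no test. Of 17 genes with a gap of 1 or more, 5 were members. The others were Ang4, Nmu, Kcnip4, Napb, Rgs1, Ndn, Snap25, Retnlb, Pln, Lgi1, Ifit2 and Calb2. The mean of the smooth muscle markers was also higher on inflamed mucosa 2 and 4 (11.13 and 10.94) than on 1 and 3 (10.15 and 10.70). Ang4, an antimicrobial ribonuclease of the gut epithelium, read 5.97, 8.71, 6.14 and 8.72 in inflamed mucosa 1 to 4, and 6.27 to 7.63 in normal mucosa. Retnlb, a goblet cell protein, read 10.52, 11.92, 9.16 and 11.85 in inflamed mucosa, against 5.31 to 8.37 in normal mucosa. Unlike Cpa3 and Mcpt1, Retnlb was high in adenocarcinoma too, between 10.30 and 12.25.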
